A study of Danio rerio with 12 samples.

Results

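The genes tnfa (ENSDARG00000009511) and tnfb (ENSDARG00000013598) are the 2 zebrafish relatives of mammalian TNF that were followed here. They were taken by name and identifier, not by their values, and are 2 of the 31962 genes in the count tables. In the 12 samples together tnfa received 485 reads and tnfb received 20161 reads. The only difference between groups that passed the test for either gene was a higher tnfa level after amputation in vehicle-treated embryos, by 8.02-fold. This call was lost when samples were not paired by experiment, when all 12 samples were fitted together, and without replicate 3. With its independent filter, the alternative program DESeq2 gave tnfa no adjusted p in this comparison. Without that filter it kept the call.

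TNF is a cytokine that is made as a membrane protein and is released from the cell surface by the protease ADAM17. It binds the receptors TNFR1 and TNFR2, which recruit adaptor proteins and activate the transcription factor NF-kB, and NF-kB in turn drives the genes of other inflammatory cytokines and of its own inhibitors. In zebrafish larvae tnfa is widely used as a marker of pro-inflammatory macrophages, and glucocorticoids are known to repress many inflammatory genes through the glucocorticoid receptor. In the RefSeq gene order of assembly GRCz12tu, tnfa lies beside gabbr1b and sh3bp5lb and tnfb lies beside gabbr1a and sh3bp5la, so each gene sits next to one copy of the same pair of gene families. The span of tnfb overlaps there with that of a long non-coding RNA, and reads of such an overlapping RNA could not be told apart from those of tnfb. The counts were made on GRCz10, and for that reason no coordinates are given.

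Macrophages were sorted by their red fluorescence from Tg(mpeg1.4:mCherry-F) embryos, in which the mpeg1 promoter drives mCherry. Control embryos kept their tails and received 0.05% DMSO as vehicle, Amp embryos had part of the tail cut off in the presence of vehicle, Beclo embryos kept their tails and received 25 µM of the glucocorticoid beclomethasone, and Amp+Beclo embryos received both treatments. The drug or vehicle was given from 2 h before amputation at 3 days post fertilization, and cells were sorted at 4 hours post amputation (hpa). Each sample was a pool of 100 to 150 embryos, each group had 3 samples from 3 replicate experiments, and 1 µg/ml actinomycin D, an inhibitor of transcription, was present while the cells were isolated. The cells thus came from the whole body, and macrophages at the wound were not separated from the others.

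Between 9488569 and 18865019 reads per sample fell on genes. Levels are given as CPM, the count of a gene relative to all reads on genes, after TMM scaling for differences in RNA composition. The scaling factors were lowest in Amp replicates 2 and 3. The 16 gene IDs of the macrophage marker list were all detected in each group, but the same was true of the muscle and epidermis markers, so transcripts typical of other cells were present in the sorted samples as well. Of 9 glucocorticoid target IDs 8 had a higher fitted level in Beclo than in Control. The test was passed by 2 of them, as by 0.167% of all genes in this direction. Among the 2 was fkbp5, which encodes a co-chaperone of the glucocorticoid receptor. The comparisons share samples, since the Control samples entered 3 of them and the others were used again in turn, so their values are set side by side and not related to each other.

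The level of tnfa was low in all groups except Amp. In Control, the levels of replicates 1, 2 and 3 were 0.185, 3.01 and 1.63 CPM, from 4, 35 and 20 reads. In Amp, they were 1.12, 21.1 and 17.8 CPM, from 20, 178 and 146 reads. Amp replicates 2 and 3 stood above every other sample, whereas Amp replicate 1 lay within the range of Control.

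In Beclo, tnfa was at 0.570, 0.336 and 0.722 CPM, from 8, 4 and 8 reads. In Amp+Beclo, it was at 1.17, 2.83 and 1.66 CPM, from 15, 29 and 18 reads. The Amp+Beclo samples all lay above the Beclo samples and within the range of Control. The 4 reads of Control replicate 1 allow a level between 0.0503 and 0.473 CPM (95% exact Poisson interval), so the lowest levels carry a large counting error. The counting intervals given here treat each read as independent and hold no spread between replicates. The amplified cDNA carried no molecular identifiers, so these intervals may be too narrow even for counting error.

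The mean level of tnfa was 13.3 ± 10.7 CPM in Amp (SD, n = 3), against 1.61 ± 1.41 CPM in Control, 1.89 ± 0.852 CPM in Amp+Beclo and 0.543 ± 0.194 CPM in Beclo. Ordered by their medians, the groups ran from Beclo (0.570 CPM) over Control (1.63) and Amp+Beclo (1.66) to Amp (17.8). Each group overlapped with its neighbour in this order, and Control and Amp+Beclo had nearly the same median. The highest sample exceeded the lowest 114-fold.

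**Figure D1:**
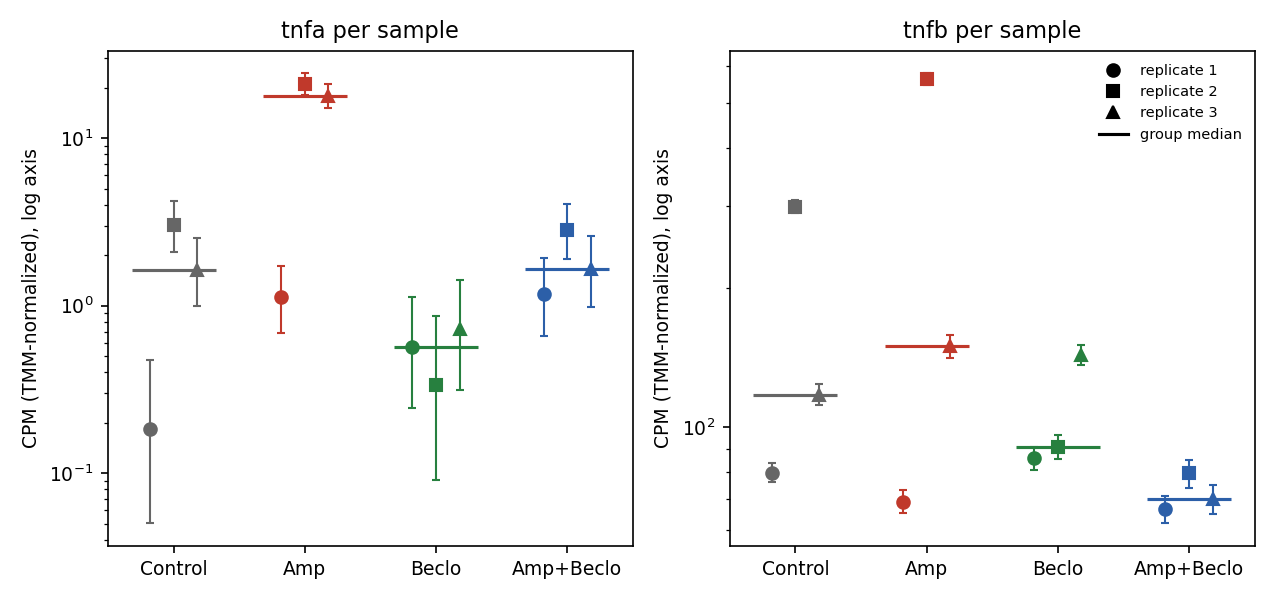
Level of tnfa (left) and tnfb (right) in each sample, in TMM-normalized CPM on log axes, with circles, squares and triangles for replicates 1, 2 and 3, bars for the 95% exact Poisson interval of the count and lines for the group median. Amp replicates 2 and 3 had the highest tnfa levels, 21.1 and 17.8 CPM, and Amp replicate 2 had the highest tnfb level, 563 CPM.

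The level of tnfb varied less. In Control it was at 79.9, 299 and 118 CPM in replicates 1, 2 and 3. In Amp it was at 69.2, 563 and 150 CPM. In both groups replicate 2 was the highest and replicate 1 the lowest sample, and the ranges of Control and Amp overlapped.

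In Beclo, tnfb was at 85.8, 90.6 and 143 CPM, and in Amp+Beclo at 66.6, 79.6 and 70.0 CPM. The 3 Amp+Beclo samples lay below all Beclo samples and all Control samples, although the nearest samples of Amp+Beclo and Control, at 79.6 and 79.9 CPM, were within counting error of each other. Only Amp replicate 1 was as low. The mean was 261 ± 265 CPM in Amp (SD, n = 3), 165 ± 117 CPM in Control, 106 ± 31.7 CPM in Beclo and 72.0 ± 6.74 CPM in Amp+Beclo. By median the order was Amp+Beclo (70.0 CPM), Beclo (90.6), Control (118) and Amp (150), in which Beclo and Control, and Control and Amp, overlapped. With at least 760 reads in each sample, the counting error of tnfb was small beside the spread of the replicates in Control, Amp and Beclo.

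To find which genes responded to wounding, Amp was compared with Control. Amputation raised tnfa in each of the 3 replicate experiments, by 6.08-fold, 6.99-fold and 10.9-fold. The ratio of experiment 1 rested on 20 and 4 reads and is the least certain in size, although the counting intervals of the samples (0.686 to 1.73 CPM and 0.0503 to 0.473 CPM) did not overlap. The fitted log2 fold change was 3.00 ± 0.50 (SE; 95% interval 2.03 to 3.98), with an adjusted p of 1.25e-06 (edgeR's quasi-likelihood test with the replicate experiment as a block, Benjamini-Hochberg adjustment over 22107 genes). This fit took the variance of each gene almost wholly from the trend over all genes. The SE, interval and p therefore hardly draw on the spread of tnfa itself over the 3 experiments. In this comparison 2.46% of the genes passed the threshold of an adjusted p below 0.05 and a fold change above 2, with 1.14% higher in Amp, and 19.0% were higher in all 3 experiments.

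The call for tnfa depended on the pairing and on replicate 3. Without the block the log2 fold change was 3.08 with an adjusted p of 0.853, in a fit of all 12 samples 2.98 with 0.288, and without replicate 3 it was 2.74 with 0.268 (edgeR). In the fit without the block edgeR called 0 of the 22107 genes, with 938 at an unadjusted p below 0.05. DESeq2 with the block called 553 genes higher and 273 lower where edgeR called 251 and 292. The gene tnfa was not among those 553, since the independent filter of DESeq2 left it without an adjusted p.

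The fitted log2 fold change of tnfb between Amp and Control was 0.36 ± 0.40 (95% interval -0.42 to 1.14), and the gene did not pass the test (edgeR, adjusted p = 0.655). Its level was 0.866-fold, 1.88-fold and 1.27-fold that of Control in experiments 1, 2 and 3, so the direction differed between experiments. The interval includes no change and increases of up to 1.14 on the log2 scale.

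Summed markers of some other cells were also high in the samples with high tnfa. The summed level of the muscle markers (4 IDs) was 41300 CPM in Amp replicate 2 and 57501 CPM in Amp replicate 3, the highest of all samples, and between 8153 and 24400 CPM in Control. The epidermis markers (5 IDs) summed to 20379 and 30623 CPM in the same Amp samples and to between 7143 and 16062 CPM in Control. In Beclo replicate 3, where tnfa was at 0.722 CPM, the epidermis sum was 20252 CPM. The neuron sum (5 IDs) was 1604 and 676 CPM in Amp replicates 2 and 3, and between 664 and 947 CPM in Control. Of the single markers, all 4 muscle IDs had a positive log2 fold change in Amp against Control, and 3 had an unadjusted p below 0.05 (edgeR). Among the 4, 1 was called higher (ckma, a muscle creatine kinase, log2 fold change 1.68, edgeR, adjusted p = 0.0369), and DESeq2 called 2. Of all genes edgeR called 1.14% higher in this comparison and DESeq2 2.5%. The 5 epidermis IDs were all positive, and 0 were called, with 1 at an unadjusted p below 0.05. Of all genes 18.2% had such a p in this comparison. The erythroid sum (3 IDs) was highest in Amp replicates 2 and 3 as well, at 2736 and 1782 CPM, whereas the endothelium sum (3 IDs) was 111 and 91.9 CPM there and between 105 and 182 CPM in Control. The neutrophil sum (4 IDs) lay between 81.7 and 214 CPM in the 12 samples, and within it mmp13a, a matrix metalloproteinase gene, was called higher in Amp (log2 fold change 1.31, edgeR, adjusted p = 0.0327) while the lowest log2 fold change was -1.17. None of these markers was at 0 in any group, and the part of these cells in the tnfa result was not tested. In Amp replicate 1, where tnfa was 6.08-fold above Control, the epidermis sum was 7017 CPM against 7861 CPM, and the muscle sum was 16839 CPM against 8153 CPM.

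The macrophage markers summed to 9945, 14824 and 3453 CPM in Control and to 9945, 23797 and 5027 CPM in Amp. This sum was led by the 6 IDs annotated MFAP4, and 1 of the 3 IDs annotated MPEG1, a weakly expressed one, was itself higher in Amp, by 1.36 on the log2 scale (edgeR, adjusted p = 0.0234). Of all genes 1.14% were called higher in Amp than in Control. Relative to the summed macrophage markers, tnfa was 6.08-fold, 4.35-fold and 7.50-fold higher in Amp than in Control in experiments 1, 2 and 3. Relative to the 3 MPEG1 IDs alone, which summed to 648 CPM in Control and 232 CPM in Amp in experiment 3, the ratios were 7.54, 11.4 and 30.5. The same 3 ratios for tnfb were 0.866, 1.17 and 0.874 with the full macrophage list and 1.07, 3.07 and 3.56 with the MPEG1 IDs, so its level relative to macrophage markers depended on the markers used. In sorted pools, a larger number of tnfa-expressing cells cannot be told apart from more tnfa RNA per cell.

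**Figure D2:**
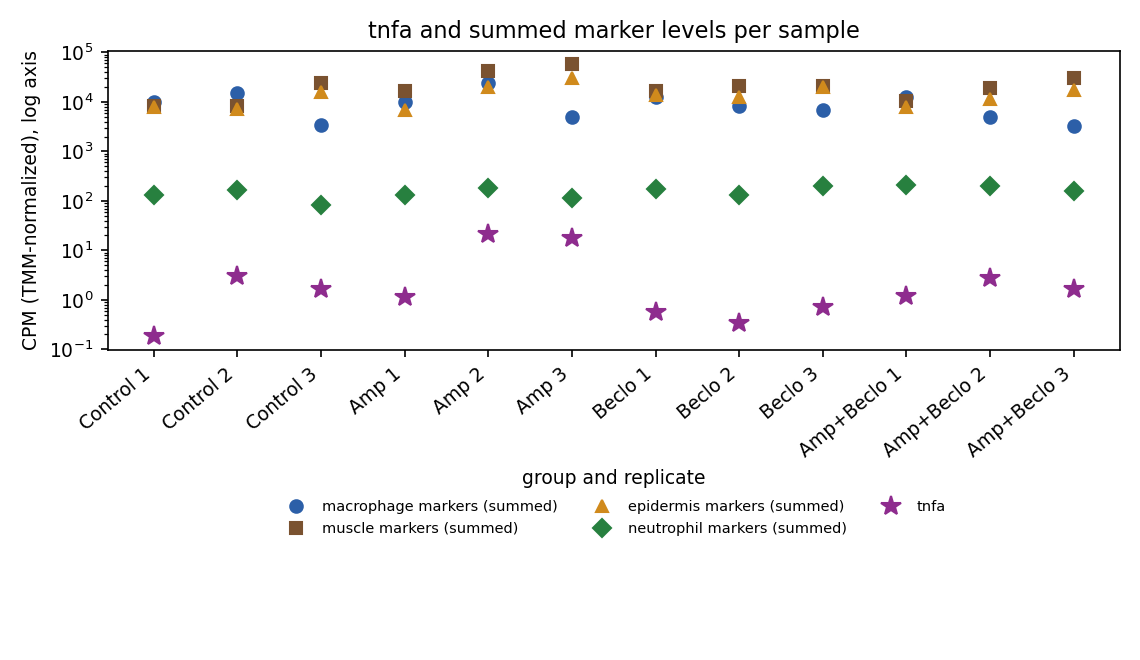
Level of tnfa (stars) and summed level of the macrophage, muscle, epidermis and neutrophil markers in each of the 12 samples, in TMM-normalized CPM on a log axis. Amp replicates 2 and 3 had both the highest tnfa levels and the highest muscle sums, 41300 and 57501 CPM.

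The effect of beclomethasone on wounded larvae was examined by comparing Amp+Beclo with Amp. In experiments 2 and 3, tnfa was 7.44-fold and 10.8-fold higher in Amp than in Amp+Beclo. In experiment 1, where Amp itself was at 1.12 CPM, the level in Amp was 0.959-fold that in Amp+Beclo. The fitted log2 fold change from Amp to Amp+Beclo was -2.19 ± 0.71 (95% interval -3.58 to -0.81). Its unadjusted p was 0.00192 and its adjusted p 0.207, so the difference did not pass the test (edgeR, 21742 genes). As in Amp against Control, the SE, interval and p hardly draw on the spread of tnfa itself. Of all genes, 0.299% passed in this comparison and 9.23% had an unadjusted p below 0.05. The study had named tnfa in these data among the genes regulated by amputation and dampened by beclomethasone. By quantitative PCR on sorted macrophages it found no significant rise of tnfa after amputation. That PCR level was significantly lower with both treatments than with amputation alone. In its tnfa reporter line, with older larvae and a more distal cut, fewer recruited macrophages were positive with the drug at 4 hpa.

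Between the same groups tnfb had a log2 fold change of -1.28 ± 0.61 (95% interval -2.47 to -0.10) and an adjusted p of 0.507 (edgeR). It was -2.07 without replicate 1 and -0.55 without replicate 2. Its level in Amp was 1.04-fold, 7.08-fold and 2.14-fold that in Amp+Beclo in experiments 1, 2 and 3. As for tnfa, the samples of experiment 1 hardly differed. In experiments 2 and 3 the muscle and epidermis sums were lower in Amp+Beclo than in Amp too. They were 19229 and 30042 CPM for muscle and 11612 and 17189 CPM for epidermis. The macrophage sum was 5019 and 3285 CPM in Amp+Beclo there, against 23797 and 5027 CPM in Amp. In experiment 1 it was 12293 against 9945 CPM. Of the 16 macrophage IDs 2 had a positive log2 fold change from Amp to Amp+Beclo, with a median of -0.80 (0.14 for all genes). The part of these markers in this comparison was not tested. Relative to the summed macrophage markers, the ratios of Amp+Beclo to Amp were 0.843, 0.637 and 0.142 for tnfa and 0.778, 0.670 and 0.716 for tnfb. Relative to the 3 MPEG1 IDs they were 1.23, 0.424 and 0.0564 for tnfa and 1.14, 0.446 and 0.284 for tnfb.

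In larvae that were not wounded, beclomethasone had no effect on tnfa that passed the test. The log2 fold change from Control to Beclo was -1.02 ± 0.93 (95% interval -3.03 to 0.99, edgeR, adjusted p = 0.963). The level of tnfa in Beclo was 3.09-fold that of Control in experiment 1, but 0.112-fold and 0.442-fold in experiments 2 and 3. The ratio of experiment 1 rested on 8 and 4 reads, whose counting intervals overlapped. Without replicate 1 the fitted log2 fold change was -2.12, and without replicate 2 it was 0.05. For tnfb it was -0.43 ± 0.42 (95% interval -1.34 to 0.48, edgeR, adjusted p = 0.963), with ratios of 1.07, 0.303 and 1.22. In this comparison 0.172% of the 22127 genes passed.

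Amp+Beclo was then set against Control, the same Control samples as above. For tnfa the log2 fold change was 0.63 ± 0.56 (95% interval -0.62 to 1.88, edgeR, adjusted p = 1). Experiment 1 gave a 6.34-fold higher level in Amp+Beclo, and experiments 2 and 3 gave ratios of 0.939 and 1.02. In experiment 1 the fold rested on the 4 reads of the Control sample, and without it the fitted log2 fold change was -0.02.

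For tnfb the log2 fold change from Control to Amp+Beclo was -0.96 ± 0.37 (95% interval -1.80 to -0.13), with an unadjusted p of 0.0272 and an adjusted p of 0.552 (edgeR), and it was -0.51 without replicate 2. The level was lower in all 3 experiments, at 0.833-fold, 0.266-fold and 0.595-fold, and the groups did not overlap. Among all genes 0.419% passed the test, 7.22% had an unadjusted p below 0.05, 13.9% were lower in all 3 experiments and 5.74% were lower without overlap. Relative to the summed macrophage markers the 3 ratios of tnfb were 0.674, 0.786 and 0.625, whereas relative to the 3 MPEG1 IDs they were 1.22, 1.37 and 1.01.

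The effect of amputation under beclomethasone was read from Amp+Beclo against Beclo. The level of tnfa was 2.05-fold, 8.40-fold and 2.30-fold higher in Amp+Beclo in experiments 1, 2 and 3. Of all genes 16.4% were higher in all 3 experiments. The groups did not overlap, as for 5.23% of all genes in this direction. The log2 fold change was 1.76 ± 0.64 (95% interval 0.27 to 3.25), and with an unadjusted p of 0.0265 and an adjusted p of 0.528 it did not pass the test (edgeR), which 0.0046% of the 21727 genes passed and 9.28% reached before adjustment. The 3 Beclo samples held 8, 4 and 8 tnfa reads.

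For tnfb the log2 fold change between Beclo and Amp+Beclo was -0.47 ± 0.22 (95% interval -0.99 to 0.05, edgeR, adjusted p = 0.545). The ratios were 0.776, 0.878 and 0.490, below 1 in all 3 experiments, as for 19.2% of all genes. The groups did not overlap, as for 5.65% of all genes in this direction. Hence the point estimates of tnfa and tnfb had opposite signs in this comparison, and neither passed the test.

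**Figure D3:**
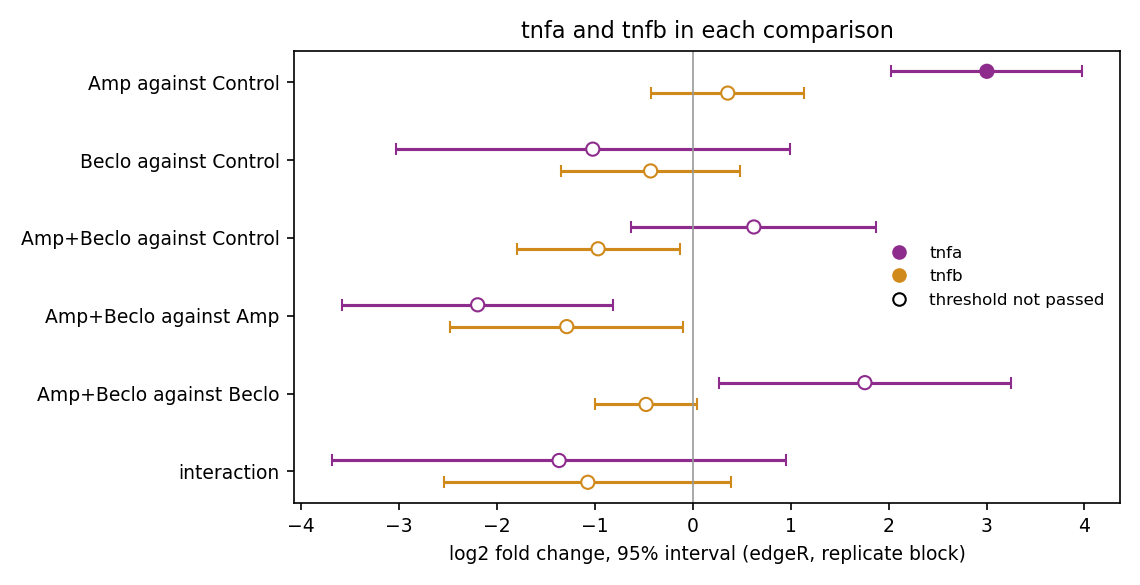
Fitted log2 fold change of tnfa and tnfb in each comparison, with 95% intervals, from edgeR with the replicate experiment as a block, where filled circles passed the threshold and open circles did not. Only tnfa in Amp against Control passed, with a log2 fold change of 3.00.

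Whether beclomethasone changed the amputation effect itself was tested as an interaction over the 12 samples. The amputation effect on tnfa was smaller with the drug by 1.36 on the log2 scale in the fit, with a value of -1.36 ± 1.09 (95% interval -3.68 to 0.96) and an adjusted p of 0.561 (edgeR). For tnfb the value was -1.07 ± 0.69 (95% interval -2.53 to 0.40, edgeR, adjusted p = 0.496). The intervals of both genes included 0 and were several log2 units wide. Median interaction values of marker lists were -1.37 for muscle, -1.01 for erythroid, -0.81 for epidermis and -0.79 for macrophage markers. They were -0.38 for neuron, -0.23 for neutrophil and 0.61 for endothelium markers, and 0.12 for all genes. The part of these cells in the values of tnfa and tnfb was not tested. Of 21979 genes, 0 (0.0%) passed in edgeR, 2389 had an unadjusted p below 0.05, and DESeq2 called 5.

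The amputation effect was also taken over both drug states, as 6 pairs of samples that shared the experiment and the drug. Outside Control and Amp, the replicate numbers did not clearly pair the samples. The level of tnfa was higher in the amputated sample in 6 of 6 pairs, by a mean of 2.08 ± 0.98 on the log2 scale (SD). An exact two-sided sign-flip test gave p = 0.0312, the smallest value that 6 pairs allow, and 0.0938 after adjustment over the 6 tests of this kind. Any gene that is higher in all 6 pairs reaches this smallest value. Of all genes, 19.0% were higher in all 3 pairs of Amp against Control, and 16.4% in those of Amp+Beclo against Beclo. The share of genes higher in all 6 pairs was not determined. For tnfb the amputated sample was higher in 2 of 6 pairs, with a mean difference of -0.09 ± 0.66 (exact p = 0.719).

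The corresponding 6 pairs for beclomethasone gave mean log2 differences of -1.45 ± 1.77 for tnfa (exact p = 0.188) and -0.88 ± 1.23 for tnfb (exact p = 0.219). Each gene was higher with the drug in 2 of 6 pairs. For both genes the SD of the differences was larger than their mean.

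The share of tnfa among the reads on both genes compares the 2 genes within a sample and does not depend on the scaling between samples. Since gene length enters the share, its change between samples is informative and its size is not. In Control it was 0.231%, 0.998% and 1.37% in replicates 1, 2 and 3. In Amp it was 1.60%, 3.60% and 10.6%. All Amp samples thus lay above all Control samples, which was not so for tnfa alone, although the Wilson 95% interval of Amp replicate 1 began at 1.04%, below the share in Control replicate 3.

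In Beclo the share was 0.660%, 0.370% and 0.502%, and in Amp+Beclo it was 1.73%, 3.43% and 2.31%. The 6 amputated samples had higher shares than the 6 samples with intact tails. The margin was narrow, with 1.60% in Amp replicate 1 against 1.37% in Control replicate 3, and the Wilson intervals of these samples overlapped. How many other genes separate the samples in this way relative to tnfb was not determined. Amp+Beclo replicates 1 and 2 had shares close to those of Amp replicates 1 and 2, and the samples of replicate 3 were far apart. A like share does not mean a like tnfa level. In experiment 2 both genes were higher in Amp than in Amp+Beclo, tnfa by 7.44-fold and tnfb by 7.08-fold. The higher share in Amp+Beclo than in Beclo also reflects lower tnfb levels in each experiment. Over the 6 pairs the log2 ratio of tnfa to tnfb was higher after amputation by 2.38 ± 0.70 (SD; 6 of 6 pairs, exact two-sided sign-flip p = 0.0312, adjusted p = 0.0938 over the 6 tests). Here too, any ratio that is higher in all 6 pairs reaches this exact p. With beclomethasone the ratio differed by -0.58 ± 1.34 (exact p = 0.438).

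**Figure D4:**
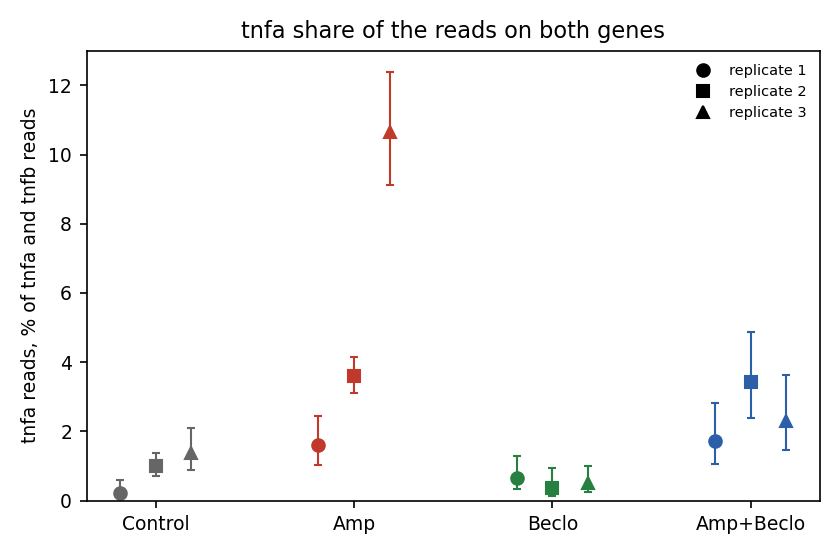
Reads on tnfa as a percentage of the reads on tnfa and tnfb in each sample, with Wilson 95% intervals, for replicates 1 (circles), 2 (squares) and 3 (triangles). The 6 amputated samples (1.60% to 10.6%) lay above the 6 samples with intact tails (0.231% to 1.37%). The intervals of Amp replicate 1 and Control replicate 3 overlapped.

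Across the 12 samples the log2 levels of tnfa and tnfb had a Pearson r of 0.67 (permutation p = 0.0187) and a Spearman rho of 0.43 (permutation p = 0.162). Both genes were high in Amp replicate 2, but in Amp replicate 3 tnfa was high and tnfb was not. With tnfb permuted only within replicate experiments, whose numbers clearly paired only Control and Amp, the exact p was 0.0898 for r and 0.383 for rho. Neither was below 0.05 in this test. Without Amp replicates 2 and 3, the samples farthest from the median of tnfa, r was 0.34 (permutation p = 0.345) and rho 0.03. After removal of the group and experiment means r was 0.73 and rho 0.59, given without a test. With 4 samples each, single experiments were too small for a test, and r was below 0 in experiment 1 and above 0 in experiments 2 and 3. No other relation between measures was tested.

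Of 13688 genes with a mean level of at least 5 CPM, the genes whose log2 levels over the 12 samples were most like those of tnfa were csf3b (r = 0.94), marcksl1b (r = 0.93) and fstl3 (r = 0.92). The first encodes a granulocyte colony-stimulating factor, and its levels were 55.3, 498 and 355 CPM in Amp, between 13.3 and 98.5 CPM in Control, and between 21.5 and 64.8 CPM in Beclo and Amp+Beclo. As for tnfa, Amp replicates 2 and 3 stood above every other sample. The genes most like tnfb were tmem107 (r = 0.96), prkab1 (r = 0.94) and mcl1a (r = 0.94). The levels of mcl1a, which encodes an inhibitor of apoptosis, were 403, 4112 and 1046 CPM in Amp and 484, 421 and 342 CPM in Amp+Beclo. These values are descriptions over samples that share libraries, and the genes were selected for their likeness.

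Other ligands of the TNF superfamily had 11 matched IDs, of which 8 had enough reads to be tested in Amp against Control. None of the 8 passed (edgeR), 2 had an unadjusted p below 0.05, as 18.2% of all genes did, and DESeq2 called 1, where it called 3.74% of all genes. Their log2 fold changes ran from -1.15 to 1.09, with a median of 0.35 against -0.11 for all genes. The change of tnfa, 3.00, was larger than that of any of them.

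Of the TNF receptors and their signal adaptors, 22 IDs were tested in Amp against Control, and 5 had a positive log2 fold change. The median was -0.38, none passed in edgeR, 6 had an unadjusted p below 0.05 (18.2% of all genes), and DESeq2 called 2 (3.74% of all genes). The receptor genes tnfrsf1a and tnfrsf1b, which encode TNFR1 and TNFR2 and were singled out after their values were seen, had log2 fold changes of -0.99 ± 0.40 and -0.74 ± 0.37 (SE) with adjusted p of 0.147 and 0.263 (edgeR). The level of tnfrsf1a was 196, 270 and 53.2 CPM in Control and 185, 102 and 18.6 CPM in Amp, and Amp replicate 3 was the lowest of the 12 samples. In Amp+Beclo against Amp the median of the 21 tested IDs was 0.55, beside 0.14 for all genes, and none passed in edgeR or in DESeq2. An unadjusted p below 0.05 was reached by 1 of them in edgeR, and by 9.23% of all genes.

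The proteins that release TNF from the membrane (the protease ADAM17 and its iRhom partners) and those that control the stability of TNF mRNA had 10 tested IDs. In Amp against Control none passed in edgeR or in DESeq2, 3 had an unadjusted p below 0.05 (18.2% of all genes), and the log2 fold changes ran from -1.13 to 0.59. The other receptors of the TNF superfamily had 13 tested IDs with a median of -0.46. Of these tnfrsf21, which encodes a receptor with a death domain, was lower in Amp, at a log2 value of -1.47 relative to Control (edgeR, adjusted p = 0.0131), where 1.32% of all genes were called lower. DESeq2 also called 1 ID of this list lower, and no ID was called lower with no block, with all 12 samples in one fit, or without replicate 2 or 3.

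Among the 14 NF-kB subunits and inhibitors, bcl3 passed the test in Amp against Control, where 1.14% of all genes were called higher. It encodes a nuclear member of the IkB family and was higher in Amp, with 7.07, 8.40 and 5.98 CPM against 1.02, 4.65 and 2.45 CPM in Control (log2 fold change 1.63 ± 0.48 (SE), edgeR, adjusted p = 0.0366). This call was lost with no block, with all 12 samples in one fit, without any 1 of the replicates, and in DESeq2 with its independent filter. The level of bcl3 was 1.57, 2.69 and 5.41 CPM in Beclo and 12.02, 16.8 and 16.3 CPM in Amp+Beclo. In Amp+Beclo it was 2.69 on the log2 scale above Control (edgeR, adjusted p = 0.0248), where 0.374% of all genes were called higher. This call was lost with no block and without replicate 3. The median of the 14 IDs was -0.10 in Amp and 0.26 in Amp+Beclo against Control, and -0.11 and -0.01 for all genes. Thus bcl3, unlike tnfa, had its highest levels with both treatments.

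Inflammatory targets of TNF and NF-kB had 25 tested IDs, and 5 of them were called higher in Amp than in Control, where 1.14% of all genes were. The list was chosen with earlier results of these data known. The study had reported il6, il1b and il8 (cxcl8a), and also tnfa, as raised by amputation in them, so the count is a description only. The median log2 fold change was 0.71. The cytokine gene il6 rose by 3.01 (edgeR, adjusted p = 8.61e-10) and csf3b by 2.89 (4.37e-08), both close to tnfa. The macrophage enzyme gene acod1, which makes itaconate, rose by 2.16 (0.000333), the chemokine gene cxcl8a by 1.83 (0.000475) and il1b by 1.40 (0.0328). None of the 25 was called lower, and 19 had a positive value. The genes tnfa, il6, csf3b and il1b all had higher levels in Amp replicates 2 and 3 than in replicate 1. The count was 0 without the replicate block, 8 in DESeq2, and 8, 3 and 0 without replicate 1, 2 and 3.

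The level of il6 was 1.11, 11.8 and 3.26 CPM in Control, 8.03, 68.1 and 41.7 CPM in Amp, and 8.12, 23.3 and 17.1 CPM in Amp+Beclo. In the plot of target genes, il6 lay 2.04 above Control in Amp+Beclo on the log2 scale, and tnfa lay 0.63 above it. In neither Amp+Beclo against Control nor Amp+Beclo against Amp did any of the 25 IDs pass in edgeR. An unadjusted p below 0.05 was reached by 6 and 7 of them (edgeR), and by 7.22% and 9.23% of all genes. DESeq2 called 3 higher in the first comparison, where it called 1.34% of all genes higher. In the second it called 2 lower, beside 0.0782% of all genes. The median of the 25 IDs from Amp to Amp+Beclo was -0.41, beside 0.14 for all genes, and csf3b and cxcl8a had values near that of tnfa, -2.19 and -2.12.

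**Figure D5:**
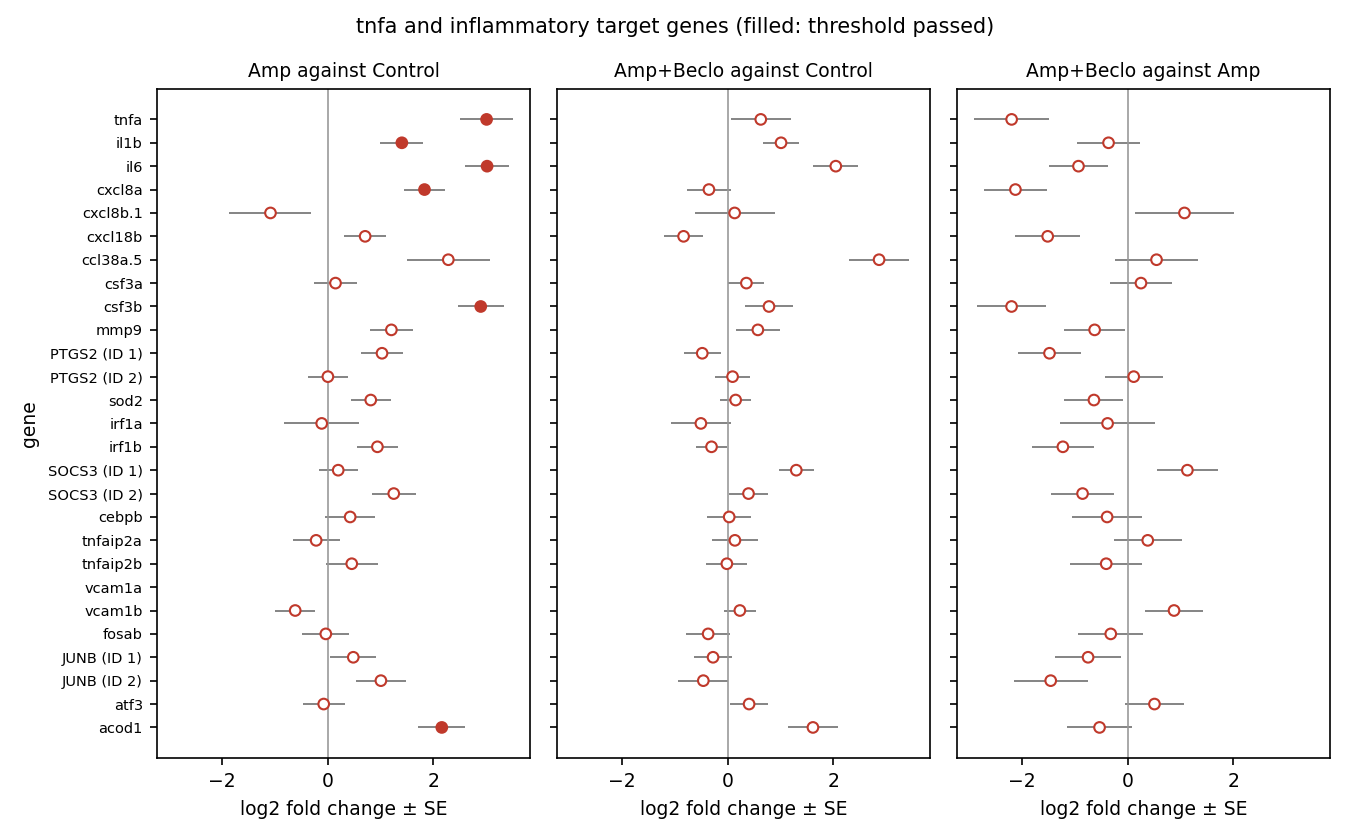
Log2 fold change ± SE (edgeR) of tnfa and the inflammatory target genes in Amp against Control, Amp+Beclo against Control and Amp+Beclo against Amp, with filled circles for genes that passed the threshold. In Amp against Control tnfa and 5 target genes passed, and in the other comparisons none did. The gene vcam1a had too few reads to be tested, and genes annotated with the same symbol are shown by ID.

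Glucocorticoid targets had 9 IDs. From Control to Beclo 8 of them had a positive value and 2 were called higher, where 0.167% of all genes were. The 2 were fkbp5, by 3.59, and klf9, which encodes a transcription factor, by 3.08 (edgeR, adjusted p = 0.00371 and 0.00706). In this comparison the count was 4 in DESeq2 and 0, 4 and 3 without replicate 1, 2 and 3. The levels of fkbp5 were 213, 149 and 106 CPM in Control and 2014, 1584 and 1857 CPM in Beclo in experiments 1, 2 and 3. From Amp to Amp+Beclo all 9 IDs had a positive value. Of these 4 were called higher (fkbp5, klf9, ddit4 and 1 of the 2 IDs annotated PER1), where 0.258% of all genes were. This count was 0 without the block and 0, 0 and 2 without replicate 1, 2 and 3.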

How the data were processed

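Macrophage RNA of 12 samples was amplified by SMART-seq V4 and sequenced in reads of 50 nucleotides. The authors deposited raw counts of reads per Ensembl gene for each sample, after mapping to GRCz10 with Tophat 2.1.0 (DESeq 1.26.0 is named for their tests). The counting program is not given in the sources used here. The deposited count files end with lines for reads outside genes, 4.72% to 12.6% of the reads, and for ambiguous reads, which were left out. Between 9488569 and 18865019 reads per sample fell on genes.

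Groups and replicate numbers came from the sample labels, and the numbers mark 3 replicate experiments. Deviations from the group means over 21979 genes correlated for same-numbered samples of Control and Amp (r = 0.474, 0.517 and 0.660), so these numbers pair the samples. In the other pairs of groups the same-numbered correlations ran from -0.377 to 0.464, both between Control and Amp+Beclo. Their means lay between -0.022 (Amp and Beclo) and 0.129 (Beclo and Amp+Beclo), so the numbers did not clearly pair the samples there. The study described paired comparisons of each group with Control, and for that reason the block was kept in those fits. It was carried over to Amp+Beclo against Amp, Amp+Beclo against Beclo and the interaction. The sign-flip tests took their pairs from the same numbers. Same-group samples differed beyond sampling noise.

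Fold changes were fitted with edgeR 4.0.16 in R 4.3.3 (TMM, quasi-likelihood F test, replicate block) on genes with at least 30 counts over the 6 samples compared, or 60 over 12 for the interaction. A call needed a Benjamini-Hochberg adjusted p below 0.05 and a fold change above 2 (the adjusted p alone for the interaction). The standard error of a log2 value was its size divided by the square root of F. In Amp against Control and Amp+Beclo against Amp, edgeR took the variance almost wholly from the trend over genes. In the other fits it did so in part. Log2 CPM used a prior count of 2, and 0.5 was added to counts for the ratio of tnfa to tnfb. Sign-flip tests enumerated 64 flips, and correlation tests drew 100000 permutations. The edgeR fit of Amp against Control with the block was tried on simulated counts, in which all genes had the same spread between replicates.

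The genes and gene lists were chosen with earlier results of these data known. Of 148 listed genes 133 matched, giving 146 gene IDs, and 26121 of the 31962 IDs had a symbol. Apart from tnfa and tnfb, the text names listed genes called in at least 1 comparison. It also names the 3 genes most like tnfa and the 3 most like tnfb over the 12 samples, and says where another gene was singled out. Where a symbol belongs to several IDs, all of them were kept, and whether reads were split between them was not tested. Alternatives were RLE scaling, DESeq2 1.42.0, no low-count filter, no block, all 12 samples in one fit, library totals only, another prior count and leaving out each replicate. DESeq2 without independent filtering, permutation within experiments (13824 exact permutations) and levels relative to macrophage markers were chosen after seeing the data.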

Additional observations from a re-analysis of the deposited data

How the results depend on the processing

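Over 170 alternative values of 23 results, 140 kept both their direction and their side of the threshold. This count says little about robustness, since most results of the 2 genes were not called in the main fit. With a replicate left out, the smallest exact p of the sign-flip tests was 0.125, so they could not pass. Among the comparisons of tnfa and tnfb only tnfa in Amp against Control changed its call. Its log2 fold change was 3.08 with no replicate block (edgeR, adjusted p = 0.853), 2.98 with all 12 samples in one fit (adjusted p = 0.288) and between 2.74 and 3.24 when a replicate was left out, with the call lost only without replicate 3 (edgeR, adjusted p = 0.268). The cause was not tested. The fit with no replicate block changed no other call of the 2 genes. The correlation of tnfa and tnfb, r = 0.67, had a p of 0.0898 by exact permutation within experiments, in place of 0.0187 by permutation over all samples. No called value changed sign, and 6 values called in neither fit did. DESeq2 with its independent filter gave no adjusted p for tnfa in Amp against Control (log2 fold change 3.08, unadjusted p = 2.5e-10) and in Amp+Beclo against Beclo (1.74, unadjusted p = 0.0614), and without that filter it kept the call of the first. Counts of called genes in Amp against Control were 543 in edgeR, 826 in DESeq2, 0 with no replicate block, 7 with all 12 samples in one fit, and 1508, 66 and 2 without replicate 1, 2 and 3. In Beclo against Control they were 38 in edgeR and 241 in DESeq2, in Amp+Beclo against Control 93 and 369, and in Amp+Beclo against Amp 65 and 91. The tnfa values rest on 4 to 178 reads per sample, which limits the comparisons among the groups with low levels.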
